A study of Mus musculus with 8 samples.

Results

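The genes described here are the replication-dependent histone genes that could be seen in polyadenylated RNA of mouse embryonic stem cells. They are the 13 genes whose older mouse symbol begins with Hist1h, Hist2h, Hist3h or Hist4h and whose counts, summed over 8 libraries, came to 20 or more. The table held 68 genes with such symbols among 47643 genes in all. Because the summed count chose the 13 genes, their standing above the other 55 is not a result. By the class letters in the symbol, 3 of the 13 encode linker histone H1, 1 encodes H2A, 4 encode H2B, 4 encode H3 and 1 encodes H4.

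The cells were E14 embryonic stem cells of the 129/Ola strain, and there were 2 libraries for each of 4 genotypes. The genotypes were labelled Dgcr8 knockout (Dgcr8 KO), Drosha knockout (Drosha KO), knockout of both Ago1 and Ago2 (Ago1_2 KO) and wild type (WT). Cells of every genotype, the WT controls included, had been kept in 2i for 2 weeks or longer, that is in N2B27 with LIF, the GSK3 inhibitor CHIR99021 and the MEK inhibitor PD0325901. DROSHA and DGCR8 together make the first cut in microRNA precursors, and AGO1 and AGO2 are the proteins that mature microRNAs guide. Nothing in the labels tells separate cultures or clones from repeat preparations, nor how the knockouts were made, so the spread behind each p-value, pooled over the 4 pairs of libraries, may be technical.

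Total counts per library lay between 13229771 and 26333907. Drosha mRNA was lower in the libraries labelled Drosha KO by 2.02 on the log2 scale (SE 0.24, edgeR quasi-likelihood test, adjusted p = 0.00196). In the libraries labelled Dgcr8 KO, Dgcr8 mRNA was higher by 2.36 ± 0.20 (SE, log2, edgeR adjusted p = 0.00101), and in those labelled Ago1_2 KO neither Ago1 (0.56 ± 0.36, adjusted p = 0.301) nor Ago2 (-0.75 ± 0.32, adjusted p = 0.132) was called, so mRNA levels do not check these 2 labels and the groups are named as labelled. The 9 naive stem cell markers summed to between 6620 and 9800 CPM in every library, where CPM (the usual read-count unit scaled to library size) were taken on library sizes corrected with TMM factors. The summed level of 4 neural markers, with Neurog2 at 0, was 7.23 and 7.5 CPM in Dgcr8 KO, 37.3 and 18.4 CPM in Drosha KO, 49.9 and 60.7 CPM in Ago1_2 KO, and 11.6 and 12.8 CPM in WT. Of the Ago1_2 KO sums, Tubb3 gave 33.4 and 46.7 CPM and Pax6 11.3 and 9.43 CPM. Sox1 in Ago1_2 KO lay below WT in both libraries (5.13 and 4.56 CPM, against 6.55 and 8.32 CPM). Markers of primitive endoderm (2.69 to 10 CPM), trophectoderm (50.1 to 114 CPM) and fibroblasts (6.8 to 15.7 CPM) were low beside the stem cell markers. Both Dgcr8 KO libraries lay below both WT libraries in the sums of the naive markers (7050 and 6620 CPM in Dgcr8 KO, 8400 and 9800 CPM in WT), the trophectoderm markers (50.1 and 54.3 CPM, against 101 and 90.1 CPM in WT), the fibroblast markers (6.81 and 6.8 CPM, against 14 and 11.5 CPM in WT) and the endoderm markers (2.69 and 2.86 CPM, against 3.27 and 4.35 CPM in WT). Single markers did not all follow these sums. The naive markers Nanog (793 and 849 CPM, against 722 and 652 CPM in WT) and Zfp42 (570 and 540 CPM, against 362 and 433 CPM) were higher in both Dgcr8 KO libraries. So was the trophectoderm marker Cdx2 (2.64 and 2.6 CPM, against 0.0564 and 0.726 CPM in WT). The endoderm sums were above WT in both libraries of Drosha KO (5.79 and 10 CPM) and of Ago1_2 KO (6.76 and 7.26 CPM). Gata4 made up most of these sums (4.65 and 7.29 CPM in Drosha KO, 3.82 and 5.39 CPM in Ago1_2 KO, 1.47 and 2.56 CPM in WT). Other endoderm markers went the other way. Sox17 in Drosha KO (0.113 and 0.155 CPM, against 0.282 and 0.484 CPM) and Gata6 in Ago1_2 KO (0.438 and 0.15 CPM, against 0.508 and 0.532 CPM) lay below both WT libraries. The part of these cells in the histone results was not tested. In bulk RNA, fewer cells of a type and less RNA per cell cannot be told apart.

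Replication-dependent histone genes supply the histones that package newly made DNA, and their mRNAs build up in S phase. Their mRNAs differ from nearly all others in ending in a short stem-loop, which the stem-loop binding protein SLBP holds, and not in a poly(A) tail. Some histone genes also give a longer, polyadenylated mRNA from a signal further downstream, and a library of polyadenylated RNA sees mainly such forms.

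Histone mRNA was close to the edge of what these libraries could measure. The 68 genes together had 1367 of 155345595 counts, which is 8.8 CPM with unscaled library sizes. Of these, the 13 genes held 1103 counts (80.7%), and 11 of the 68 genes had no count in any library. The H1 genes had 339 counts over 6 genes, the H2A genes 245 over 20, the H2B genes 480 over 17, the H3 genes 174 over 12 and the H4 genes 129 over 13. A few genes carried each class: the members named here held 93.5% of the H1 counts, 79.6% of H2A, 79.2% of H2B, 83.9% of H3 and 50.4% of H4. At the limit of the rule, Hist1h1d and Hist1h3g had 20 counts, Hist1h3c 21 and Hist1h2bq 24, while just outside it Hist1h2be had 18, Hist3h2ba 15, Hist2h4 14 and Hist1h2bp 13. The testis variants Hist1h1t and Hist1h2aa had 0 counts, and Hist1h2ba had 1.

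**Figure D1:**
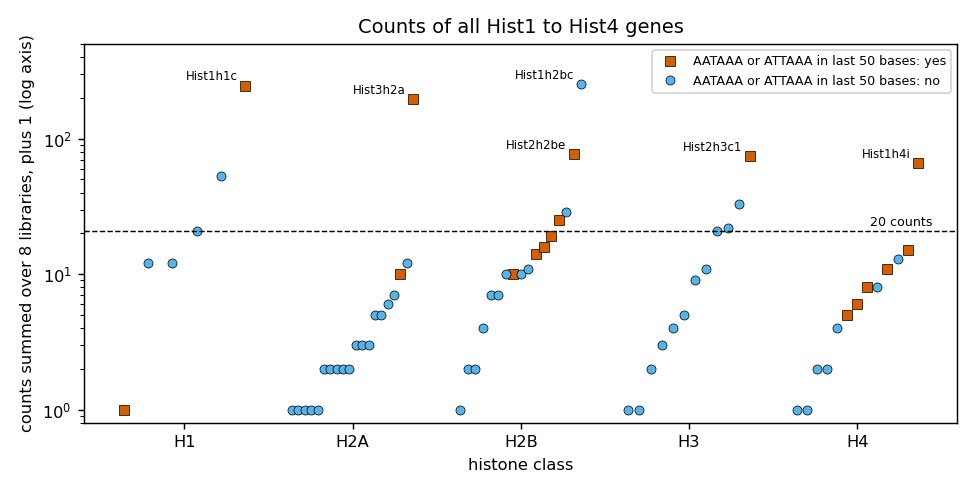
Counts of each of the 68 histone genes summed over the 8 libraries, plus 1, on a log axis, by histone class; squares mark genes with AATAAA or ATTAAA in the last 50 bases of an annotated transcript, and the dashed line is the limit of 20 counts. In each class 1 to 4 genes lie on or above the line, and Hist1h2bc (252 counts), Hist1h1c (245) and Hist3h2a (195) stand highest.

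The sequences below show the histone stem-loop, the element that sets these mRNAs apart, in the annotated transcripts (GENCODE M21, GRCm38) of the members that carry it, each 5′ to 3′ with the stem-loop in capitals and 5 flanking bases on either side. The pattern searched was GGNNNNTTNNNNNNCC on the transcript strand, with its last 6 bases the reverse complement of its first 6, taken at its first match after the stop codon.
Hist1h1c: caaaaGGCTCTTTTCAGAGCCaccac
Hist1h1d: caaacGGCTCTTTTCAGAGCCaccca
Hist3h2a: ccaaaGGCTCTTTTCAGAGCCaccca
Hist1h2bk: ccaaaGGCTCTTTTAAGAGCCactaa
Hist1h3c: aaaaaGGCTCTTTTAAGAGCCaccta
Hist2h3c1: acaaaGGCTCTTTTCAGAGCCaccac
Hist2h3c2: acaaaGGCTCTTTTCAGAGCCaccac
Hist1h4i: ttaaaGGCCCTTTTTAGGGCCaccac
The H1, H2A, H2B and H3 genes in this list share the stem GGCTCT, and Hist1h4i has GGCCCT. The pair Hist2h3c1 and Hist2h3c2 have the same 26 bases. A match was found in 8 of the 13 members and in 34 of the other 55 histone genes (61.8%), against 128 of 21951 protein-coding genes (0.6%) searched over the whole longest transcript. No match in Hist1h1a, Hist1h2bc, Hist1h2bq, Hist2h2be or Hist1h3g says only that these letters are not in the annotated transcript.

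The annotated transcripts of several members run on far past the stem-loop. The stem-loop of Hist1h1c is followed by 840 bases, that of Hist3h2a by 1643, that of Hist2h3c1 by 1167 and that of Hist1h4i by 330, and each of these 4 transcripts has AATAAA or ATTAAA, the usual signal for polyadenylation, starting 21 to 34 bases before its end. Other long ends lack a signal so near the end. The transcript of Hist2h3c2 runs on for 377 bases after the stem-loop with no signal after the stop codon. That of Hist1h1d runs on for 4884 bases, with its last signal 203 bases before its end. By contrast, the transcript of Hist1h2bk ends 30 bases after the stem-loop and that of Hist1h3c 74 bases after it, with no such signal after the stop codon. Hist2h2be has no stem-loop match and has a signal 22 bases before its end. Either signal stood in the last 50 bases of an annotated transcript in 6 of the 13 members (46.2%), in 11 of the other 55 histone genes (20%) and in 15092 of 21951 protein-coding genes (68.8%, longest transcript). Over all 68 genes the median summed count was 14 in the 17 genes with a signal and 3 in the 51 without; the 17 and the 51 were not compared by a test, since the members were chosen by their counts. The highest gene, Hist1h2bc, is among those without a signal in the last 50 bases: its annotated transcript has 2 exons and a single signal 447 bases before its end. Of the 13 members, 11 have a longest transcript of 1 exon, and transcript lengths ran from 476 to 7425 bases with a median of 1156, against a median of 485 bases for the other 55 genes. Longer transcripts also give more fragments to count, and the part of length in the counts was not tested.

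**Figure D2:**
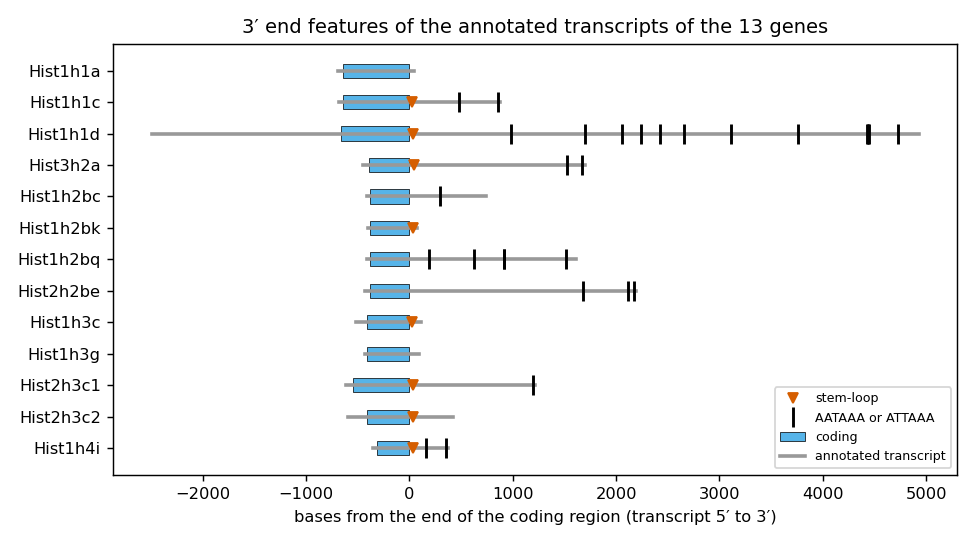
Annotated transcript of each of the 13 genes to scale, aligned at the end of the coding region, with the coding region as a box, the stem-loop as a triangle and each AATAAA or ATTAAA after the stop codon as a vertical line. The stem-loops lie just after the stop codon, and in Hist1h1c, Hist3h2a, Hist2h3c1 and Hist1h4i a signal also stands close to a transcript end 330 to 1643 bases further on. The transcripts of Hist1h1d and Hist2h3c2 also run on far past the stem-loop, with no signal in their last 50 bases.

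Between genes, levels can be compared only per length. On the scale of CPM per kilobase of longest transcript, averaged over the 8 libraries, Hist1h2bc stood highest with 1.35, followed by Hist1h1c with 0.99, Hist1h4i with 0.589, Hist3h2a with 0.56 and Hist1h1a with 0.473. At the low end were Hist1h2bq with 0.0752 and Hist1h1d with 0.0171; the transcript of Hist1h1d is the longest of the set. Reads may also be shared with other genes, near-identical copies or not. Hist2h3c1 lies inside another annotated gene on the same strand, and Hist1h2bc shares 50-base words with 100 other genes. The share of 50-base words that occur in no other annotated gene was 100% for Hist1h1a and Hist2h2be and 91.5% for Hist1h1c, but 69.9% for Hist1h2bc, 25.8% for Hist1h2bk, 2.7% for Hist1h2bq and 0% for Hist2h3c1. The sources used here do not state how reads that fit several genes were counted, so values of the genes with low shares are uncertain.

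Of the 13 members, 7 passed the filter on low counts that the per-gene test needs (about 0.553 CPM in 2 or more libraries), and 6 were too low to test. Hist1h1a passed it through the Dgcr8 KO libraries alone, which were the only ones at or above that level, so its difference between Dgcr8 KO and the rest was partly fixed by the filter. Hist2h3c1 passed it through both Ago1_2 KO libraries and Drosha KO replicate 2, so its height there against Dgcr8 KO and WT was partly fixed in the same way. Hist1h4i passed it through replicate 2 of Dgcr8 KO, Ago1_2 KO and WT and no Drosha KO library, so its low level in Drosha KO was partly fixed too. Hist2h2be passed it only through replicate 2 of Drosha KO and of WT. None of the 7 tested members was called at an adjusted p under 0.05 by edgeR's quasi-likelihood test in Dgcr8 KO, Drosha KO or Ago1_2 KO against WT. Over all 16388 genes tested, 6.93% were called in Dgcr8 KO (2.45% higher and 4.48% lower), 11.4% in Drosha KO (6.54% higher and 4.83% lower) and 17.6% in Ago1_2 KO (10.2% higher and 7.38% lower). At an unadjusted p under 0.05, edgeR gave 2 members in Dgcr8 KO (both lower), 0 in Drosha KO and 2 in Ago1_2 KO (1 higher and 1 lower), where the shares over all genes tested were 30.0%, 29.9% and 34.8%. DESeq2 called 0 members in each KO against WT, with 2, 0 and 0 at an unadjusted p under 0.05 in Dgcr8 KO, Drosha KO and Ago1_2 KO (28.7%, 28.6% and 33.1% of all genes). Limma-voom also called 0 in each, with 3, 0 and 3 at that limit (29.9%, 30.0% and 34.9% of all genes).

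**Figure D3:**
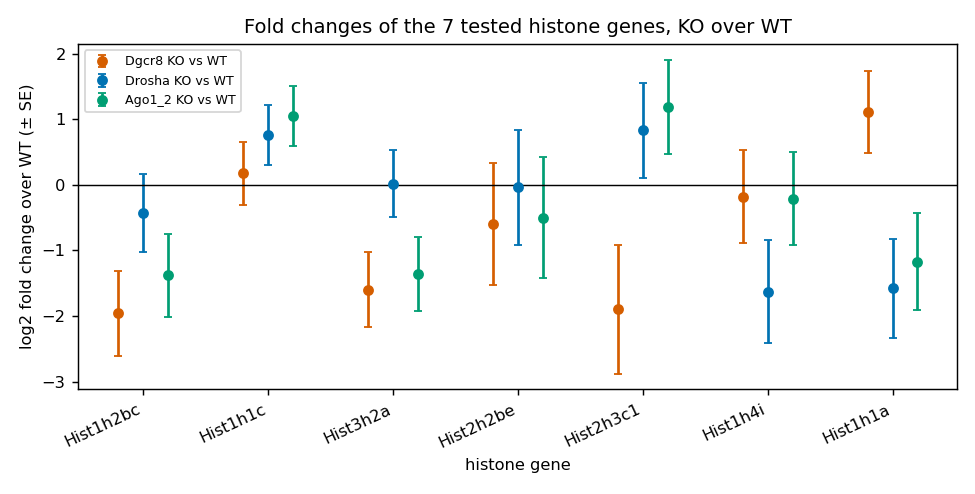
Log2 fold change of each KO over WT, with its standard error, for the 7 histone genes tested (edgeR). The 3 KO comparisons share the same 2 WT libraries; Hist1h2bc, Hist2h3c1 and Hist3h2a lie lowest in Dgcr8 KO, Hist1h2bc and Hist3h2a in Ago1_2 KO, Hist1h1c lies above 0 in each KO, and none of the values was called.

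Hist1h1c (ENSMUSG00000036181.2, chromosome 13, 23738808 to 23740367, plus strand, current symbol H1f2) encodes a linker histone, which binds the DNA between nucleosomes. It had 20 and 21 counts in Dgcr8 KO, 30 and 48 counts in Drosha KO, 58 and 27 counts in Ago1_2 KO, and 12 and 29 counts in WT. The mean level was 1.19 ± 0.197 CPM in Dgcr8 KO, 1.78 ± 0.112 CPM in Drosha KO, 2.16 ± 0.203 CPM in Ago1_2 KO and 1.04 ± 0.513 CPM in WT (SD, n = 2 each). Both libraries of Drosha KO and both of Ago1_2 KO lay above both WT libraries, while Dgcr8 KO overlapped WT. The log2 fold change over WT was 1.05 ± 0.46 in Ago1_2 KO (edgeR adjusted p = 0.14), 0.76 ± 0.46 in Drosha KO (adjusted p = 0.291) and 0.18 ± 0.48 in Dgcr8 KO (adjusted p = 0.821). None was called. The WT libraries lay 2.07-fold apart: without WT replicate 1 the Ago1_2 KO value was 0.66 and the Drosha KO value 0.37, and without WT replicate 2 they were 1.69 and 1.41.

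Hist1h1a (ENSMUSG00000049539.2, chromosome 13, 23763666 to 23764406, plus strand, H1f1) encodes another linker histone, with another order of levels. It had 14 and 13 counts in Dgcr8 KO, 2 and 3 counts in Drosha KO, 4 and 2 counts in Ago1_2 KO, and 3 and 11 counts in WT. The Dgcr8 KO libraries, at 0.739 and 0.826 CPM, lay above all 6 others, which ran from 0.113 to 0.532 CPM. Against WT the log2 fold change was 1.11 ± 0.62 in Dgcr8 KO (edgeR adjusted p = 0.25), -1.58 ± 0.76 in Drosha KO (adjusted p = 0.194) and -1.17 ± 0.74 in Ago1_2 KO (adjusted p = 0.291). These values moved with the WT library left out: without WT replicate 2 they were 2.17 in Dgcr8 KO, -0.51 in Drosha KO and -0.10 in Ago1_2 KO; leaving out WT replicate 1 gave 0.56 in Dgcr8 KO, -2.13 in Drosha KO and -1.70 in Ago1_2 KO. The third linker gene, Hist1h1d (chromosome 13, 23553262 to 23560686, plus strand, H1f3), had 2 and 4 counts in Dgcr8 KO, 1 and 4 counts in Drosha KO, 3 and 1 counts in Ago1_2 KO, and 1 and 4 counts in WT. Its groups overlapped throughout and it was too low to test.

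The only H2A gene, Hist3h2a (ENSMUSG00000078851.4, chromosome 11, 58954685 to 58956830, plus strand, H2aw), lies in the small cluster away from the main histone cluster. It had 11 and 9 counts in Dgcr8 KO, 22 and 59 counts in Drosha KO, 13 and 12 counts in Ago1_2 KO, and 21 and 48 counts in WT. Levels averaged 0.576 ± 0.00614 CPM in Dgcr8 KO, 1.77 ± 0.735 CPM in Drosha KO, 0.708 ± 0.269 CPM in Ago1_2 KO and 1.75 ± 0.804 CPM in WT (SD, n = 2 each). Both Dgcr8 KO libraries and both Ago1_2 KO libraries lay below both WT libraries, and Drosha KO overlapped WT. The log2 fold change over WT was -1.60 ± 0.57 in Dgcr8 KO (edgeR adjusted p = 0.101), 0.02 ± 0.51 in Drosha KO (adjusted p = 0.984) and -1.36 ± 0.56 in Ago1_2 KO (adjusted p = 0.116). With no filter on low counts, which changes the spread estimated for all genes, the Dgcr8 KO difference was called at -1.62 (edgeR adjusted p = 0.0462), and without WT replicate 1 it was called at -1.98 (adjusted p = 0.0408). Without WT replicate 2 it was -1.03 and not called (adjusted p = 0.377), and the Ago1_2 KO difference was -0.77 (adjusted p = 0.458).

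Hist3h2a lies within Trim17 on the same strand, and both genes start at the same base. Trim17, which encodes a ubiquitin ligase, had 3 and 5 counts in Dgcr8 KO, 20 and 51 counts in Drosha KO, 17 and 23 counts in Ago1_2 KO, and 13 and 36 counts in WT. Both genes had their lowest counts in the Dgcr8 KO libraries and their highest in Drosha KO replicate 2 and WT replicate 2. In Ago1_2 KO they differed: by counts not scaled to library size, Hist3h2a (13 and 12) lay below both WT libraries (21 and 48), and Trim17 lay between them. Where the first exons overlap, reads of one cannot be told from reads of the other. The microRNA gene Gm44313, on the other strand of the same region, had 0 counts in every library.

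Among the H2B genes, Hist1h2bc (ENSMUSG00000018102.4, chromosome 13, 23684199 to 23692908, plus strand, H2bc4) was the highest histone gene per length, and H2B forms the nucleosome core with H2A, H3 and H4. It had 11 and 12 counts in Dgcr8 KO, 14 and 78 counts in Drosha KO, 18 and 18 counts in Ago1_2 KO, and 42 and 59 counts in WT. Levels averaged 0.671 ± 0.129 CPM in Dgcr8 KO, 1.91 ± 1.58 CPM in Drosha KO, 1.03 ± 0.446 CPM in Ago1_2 KO and 2.61 ± 0.342 CPM in WT (SD, n = 2 each). Dgcr8 KO and Ago1_2 KO lay below WT in both libraries. In Drosha KO the 2 libraries differed 3.8-fold, with replicate 1 near Dgcr8 KO and replicate 2 above both WT libraries. The log2 fold change over WT was -1.96 ± 0.65 in Dgcr8 KO (edgeR adjusted p = 0.0881), -0.43 ± 0.59 in Drosha KO (adjusted p = 0.659) and -1.38 ± 0.63 in Ago1_2 KO (adjusted p = 0.149).

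Against WT, no member was called lower in Dgcr8 KO with library size only, DESeq2 or its size factors, limma-voom or a filter of 1 CPM. Nor was any with a fit of only the groups compared or an offset for transcript length. Over all genes, 3241 of 27381 were called with no filter and 2795 of 16388 with a replicate block, against 1136 of 16388 in the main test. The Dgcr8 KO difference in Hist1h2bc crossed the threshold in some settings. It was called with no filter on low counts (-1.97, edgeR adjusted p = 0.00538), with the replicate number as a block (-1.97, adjusted p = 0.0402), without Drosha KO replicate 1 (-1.96, adjusted p = 0.0315) and without Drosha KO replicate 2 (-1.96, adjusted p = 0.033). Across 16315 genes, the fold change of Dgcr8 KO over WT had a Spearman correlation of -0.44 with transcript GC content. With transcript length, the correlation of the fold change over WT was 0.28 in Dgcr8 KO, 0.28 in Drosha KO and 0.35 in Ago1_2 KO. These values are descriptions across genes that are not independent. With an offset per library for GC content the Hist1h2bc value was -2.19 (adjusted p = 0.0905).

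Hist2h2be (chromosome 3, 96221119 to 96223738, plus strand, H2bc21), another H2B gene with fully unique sequence, had 8 and 5 counts in Dgcr8 KO, 1 and 25 counts in Drosha KO, 9 and 6 counts in Ago1_2 KO, and 6 and 16 counts in WT. The Drosha KO libraries differed 17.1-fold and spanned all the others. Its log2 fold change over WT was -0.59 ± 0.93 in Dgcr8 KO, -0.04 ± 0.87 in Drosha KO and -0.50 ± 0.92 in Ago1_2 KO (edgeR adjusted p = 0.693, 0.979 and 0.733). Hist1h2bk (chromosome 13, 22035870 to 22036345, plus strand, H2bc12) had 5 and 0 counts in Dgcr8 KO, 1 and 3 counts in Drosha KO, 3 and 5 counts in Ago1_2 KO, and 4 and 7 counts in WT. Hist1h2bq, of which 2.7% of words are unique, had 1 to 8 counts per library. Both were too low to test, and Hist1h2bk in Drosha KO lay below WT in both libraries.

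Histone H3 pairs with H4 in the nucleosome core. Hist2h3c1 (ENSMUSG00000093769.3, chromosome 3, 96246685 to 96248509, plus strand, H3c14) had 3 and 0 counts in Dgcr8 KO, 7 and 20 counts in Drosha KO, 20 and 10 counts in Ago1_2 KO, and 4 and 9 counts in WT. Levels averaged 0.0792 ± 0.112 CPM in Dgcr8 KO, 0.586 ± 0.267 CPM in Drosha KO, 0.772 ± 0.0336 CPM in Ago1_2 KO and 0.331 ± 0.148 CPM in WT (SD, n = 2 each). Dgcr8 KO lay below WT and Ago1_2 KO above it in both libraries, and Drosha KO overlapped WT. The log2 fold change over WT was 1.19 ± 0.72 in Ago1_2 KO (edgeR adjusted p = 0.265) and 0.83 ± 0.72 in Drosha KO (adjusted p = 0.469). For Dgcr8 KO, with 3 counts against 13 in WT, the ratio was 0.255 with an exact 95% interval of 0.0467 to 0.929, and edgeR's adjusted p was 0.221. Such intervals cover counting error only.

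Hist2h3c1 lies wholly inside Gm20634 (chromosome 3, 96245554 to 96248509), an annotated transcript on the same strand. Gm20634 had 3 and 0 counts in Dgcr8 KO, 9 and 26 counts in Drosha KO, 22 and 14 counts in Ago1_2 KO, and 5 and 10 counts in WT. In each library its count was equal to that of Hist2h3c1 or up to 6 higher. Reads of the histone gene and of the longer transcript cannot be told apart in these counts.

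Hist2h3c2 (chromosome 3, 96238108 to 96239127, minus strand, H3c15), its neighbour, had 0 and 1 counts in Dgcr8 KO, 7 and 5 counts in Drosha KO, 1 and 1 counts in Ago1_2 KO, and 3 and 14 counts in WT. Dgcr8 KO and Ago1_2 KO lay below WT in both libraries. The ratio to WT was 0.0651 in Dgcr8 KO (1 count against 17, exact 95% interval 0.00156 to 0.415) and 0.117 in Ago1_2 KO (2 against 17, interval 0.0131 to 0.494). Most of the WT counts came from replicate 2. Hist1h3c (chromosome 13, 23744973 to 23745602, minus strand, H3c3) had 2 and 1 counts in Dgcr8 KO, 0 and 1 counts in Drosha KO, 1 and 4 counts in Ago1_2 KO, and 3 and 9 counts in WT, and in Drosha KO the ratio to WT was 0.0737 (1 against 12, interval 0.00172 to 0.498). Hist1h3g had 0 to 5 counts per library. These 3 genes were too low to test.

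The H4 member, Hist1h4i (ENSMUSG00000060639.5, chromosome 13, 22040636 to 22041362, minus strand, H4c9), had 8 and 9 counts in Dgcr8 KO, 1 and 7 counts in Drosha KO, 10 and 8 counts in Ago1_2 KO, and 5 and 17 counts in WT. Both Drosha KO libraries, at 0.0567 and 0.271 CPM, lay below both WT libraries, at 0.282 and 0.822 CPM, and the other KO groups overlapped WT. The log2 fold change over WT was -1.63 ± 0.79 in Drosha KO (edgeR adjusted p = 0.197), -0.18 ± 0.71 in Dgcr8 KO (adjusted p = 0.887) and -0.21 ± 0.71 in Ago1_2 KO (adjusted p = 0.862). The Drosha KO value was -3.15 without Drosha KO replicate 2, -1.03 without Drosha KO replicate 1, and -0.63 without WT replicate 2.

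**Figure D4:**
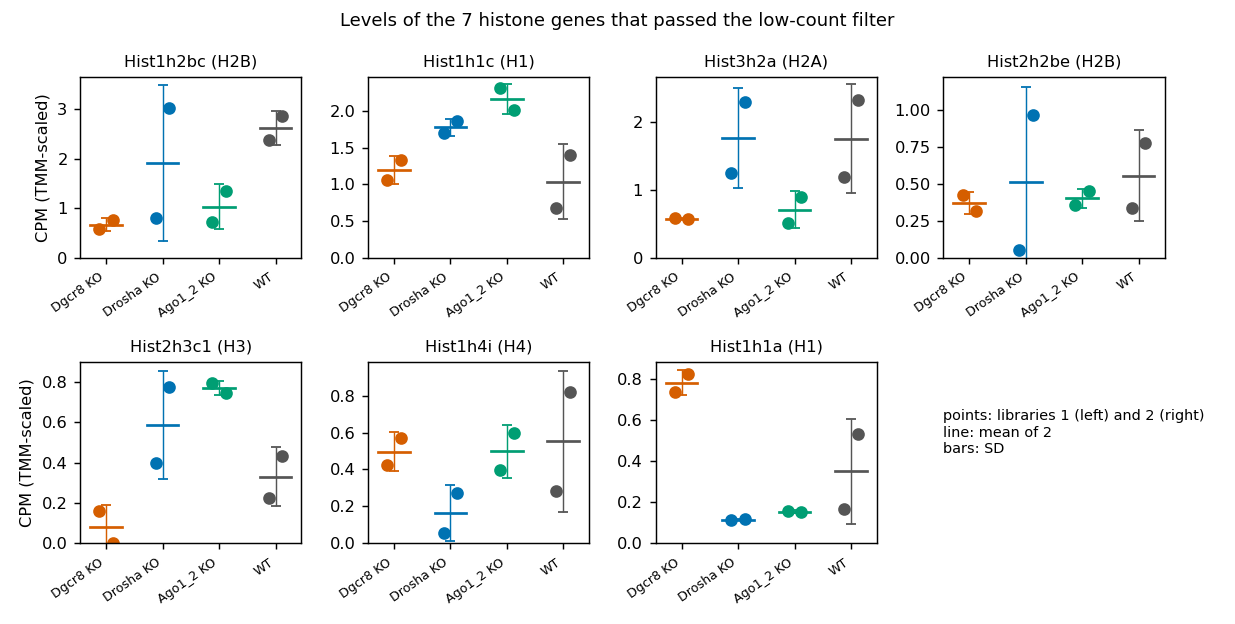
CPM on TMM-scaled library sizes of the 7 tested histone genes; points are the 2 libraries of a genotype, the line is their mean and the bars are the SD. Hist1h1a is high in Dgcr8 KO, Hist1h2bc and Hist3h2a are low in Dgcr8 KO and Ago1_2 KO, and the Drosha KO libraries lie far apart for Hist1h2bc and Hist2h2be.

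Counted over all 13 members, both libraries lay above both WT libraries for 1 gene in Dgcr8 KO, 1 in Drosha KO and 2 in Ago1_2 KO, where the shares over 18772 genes with 20 or more counts were 29.6%, 24.8% and 30.2%. Both libraries lay below both WT libraries for 5 members in Dgcr8 KO, 4 in Drosha KO and 4 in Ago1_2 KO, against 30.2%, 25.3% and 30.4% of all such genes. The members below WT were Hist3h2a, Hist1h2bc, Hist1h3c, Hist2h3c1 and Hist2h3c2 in Dgcr8 KO, Hist1h1a, Hist1h2bk, Hist1h3c and Hist1h4i in Drosha KO, and Hist1h1a, Hist3h2a, Hist1h2bc and Hist2h3c2 in Ago1_2 KO. With 13 genes, 4 to 5 lower genes are near the background share. Among the KO groups, Drosha KO lay above Dgcr8 KO for 5 members and below it for 3 (31.0% and 30.9% of all such genes), Ago1_2 KO above Dgcr8 KO for 3 and below it for 1 (35.3% and 35.8%), and Ago1_2 KO above Drosha KO for 6 and below it for 2 (20.9% and 18.4%).

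Summed over the 13 members, the level was 4.59 and 5.02 CPM in Dgcr8 KO, 4.94 and 10.2 CPM in Drosha KO, 5.89 and 7.63 CPM in Ago1_2 KO, and 6.21 and 10.9 CPM in WT. Both Dgcr8 KO libraries lay below both WT libraries and the other groups overlapped WT. The log2 ratio of the group mean to that of WT was -0.83 in Dgcr8 KO, -0.18 in Drosha KO and -0.34 in Ago1_2 KO. Without WT replicate 2 the ratio was -0.37 in Dgcr8 KO and 0.12 in Ago1_2 KO. No test was made of sums over members, and 2 libraries against 2 cannot give an exact permutation p under 0.05. The 55 histone genes below the limit gave 32 and 22 counts in Dgcr8 KO, 25 and 38 counts in Drosha KO, 28 and 26 counts in Ago1_2 KO, and 32 and 61 counts in WT.

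The classes differed in their order of levels. The H1 sum was 2.16 ± 0.364 CPM in Dgcr8 KO, 2.0 ± 0.184 CPM in Drosha KO, 2.42 ± 0.242 CPM in Ago1_2 KO and 1.52 ± 0.866 CPM in WT (SD, n = 2 each). The H2B sum was 1.29 ± 0.0344 CPM in Dgcr8 KO, 2.69 ± 2.44 CPM in Drosha KO, 1.87 ± 0.736 CPM in Ago1_2 KO and 3.56 ± 0.644 CPM in WT. The H3 sum was 0.28 ± 0.126 CPM in Dgcr8 KO, 0.959 ± 0.233 CPM in Drosha KO, 1.27 ± 0.327 CPM in Ago1_2 KO and 1.19 ± 0.644 CPM in WT. As a share of the members' CPM, H1 genes made up 41.4% and 48.1% of Dgcr8 KO libraries, 37.9% and 20.8% of Drosha KO, 43.9% and 29.4% of Ago1_2 KO, and 14.5% and 19.5% of WT, so that the WT libraries had the lowest H1 shares. Single genes carried these sums: without Hist1h1c the log2 ratio of the H1 sum to WT was -1.11 in Drosha KO and -0.92 in Ago1_2 KO, where with it the ratio was 0.40 and 0.67, and in Dgcr8 KO it was 1.02 without the gene and 0.51 with it. Without Hist1h2bc the H2B ratio was -0.60 in Dgcr8 KO, against -1.46 with it.

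**Figure D5:**
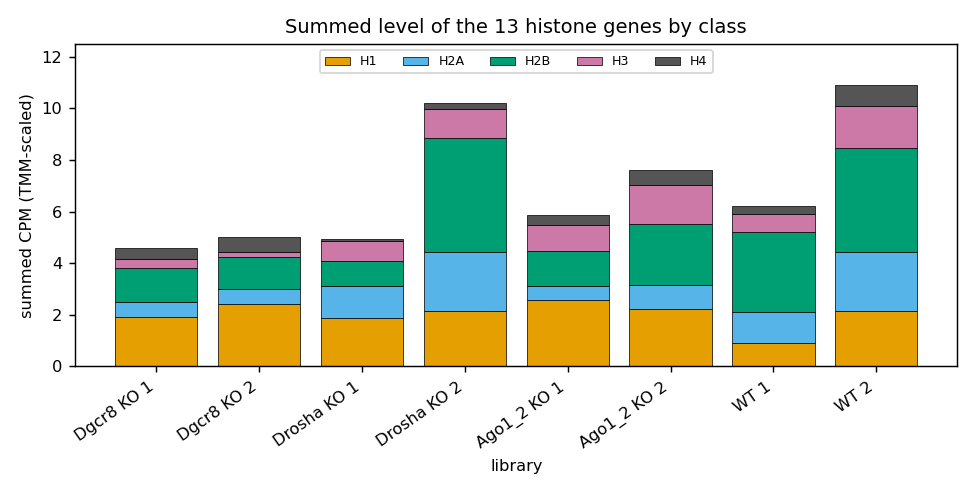
Summed CPM (TMM-scaled) of the 13 histone genes in each library, stacked by class. The stacks reach 4.59 to 10.9 CPM, and Drosha KO replicate 2 and WT replicate 2 stand highest through their H2B and H2A parts.

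Among the KO groups, 2 members were called, both of which had passed the filter on low counts only through libraries in which they were high. Hist1h1a was lower in Drosha KO than in Dgcr8 KO (5 counts against 27, log2 fold change -2.70 ± 0.71, edgeR adjusted p = 0.0325), the only 1 of 7 tested members called in that comparison, in which 15.4% of all genes were called (9.67% higher and 5.74% lower). Against Dgcr8 KO, Hist1h1a in Ago1_2 KO stood at -2.28 ± 0.70 and was not called (edgeR adjusted p = 0.0505). Hist2h3c1 was higher in Ago1_2 KO than in Dgcr8 KO (30 counts against 3, log2 fold change 3.09 ± 0.90, adjusted p = 0.0429, ratio of counts 9.01 with an exact 95% interval of 2.8 to 46.1), 1 of 7 where 17.1% of all genes were called (11.6% higher and 5.54% lower). In Drosha KO, Hist2h3c1 stood above Dgcr8 KO by 2.72 ± 0.91 and was not called (adjusted p = 0.0712).

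These 2 calls rested on few counts. DESeq2 called neither, with adjusted p = 0.131 for Hist1h1a and 0.0818 for Hist2h3c1, and limma-voom called both (0.036 and 0.0317). The Hist1h1a call was lost without any 1 library of Dgcr8 KO, Drosha KO or Ago1_2 KO, with adjusted p from 0.0703 to 0.183 and a log2 fold change from -2.78 to -2.61. The Hist2h3c1 call was lost without any 1 library of Dgcr8 KO or Ago1_2 KO. Its log2 fold change was 2.25 without Dgcr8 KO replicate 2 (adjusted p = 0.246) and 6.92 without Dgcr8 KO replicate 1, which leaves Dgcr8 KO with 0 counts.

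Between Ago1_2 KO and Drosha KO, 0 of 7 members were called by edgeR, DESeq2 or limma-voom, where 0.732% of all genes were called by edgeR (0.409% higher and 0.323% lower). At an unadjusted p under 0.05, edgeR gave 1 member there, Hist3h2a at -1.37 ± 0.55 (unadjusted p = 0.0328), limma-voom gave 1 and DESeq2 gave 0, where the shares of all genes were 9.78%, 10.3% and 8.38%. In a test of any difference among the 4 genotypes, edgeR called Hist1h1a (adjusted p = 0.0474), where 24.8% of all genes were called. Since Hist1h1a passed the filter on low counts through the Dgcr8 KO libraries alone, this difference was partly fixed by the filter. DESeq2 and limma-voom called 0 members in that test, with 1 and 3 at an unadjusted p under 0.05 (43.5% and 42.0% of all genes), against 4 for edgeR (42.7% of all genes).

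The 11 listed histone variant genes with other symbols, most of which are made throughout the cell cycle from mRNAs with poly(A) tails (H2afx gives both a stem-loop and a polyadenylated form), summed to 2050 and 2110 CPM in Dgcr8 KO, 1920 and 1960 CPM in Drosha KO, 1770 and 1760 CPM in Ago1_2 KO, and 2110 and 2990 CPM in WT. Against WT, 0 were called in Dgcr8 KO, 1 higher and 2 lower in Drosha KO, and 1 higher and 3 lower in Ago1_2 KO. Of all genes tested, the share called in either direction was 6.93% for Dgcr8 KO, 11.4% for Drosha KO and 17.6% for Ago1_2 KO. The share called lower was 4.48%, 4.83% and 7.38%. These shares are the background for this list and those that follow. With 11 to 30 genes in a list, a share rests on few genes, and no list was tested as a set. The variants had median log2 fold changes of -0.46, -0.40 and -0.60, beside -0.03, -0.02 and -0.02 for all genes tested. H1f0, the linker variant made outside S phase, rose by 0.98 ± 0.23 in Drosha KO and 0.85 ± 0.23 in Ago1_2 KO (log2, edgeR adjusted p = 0.0277 and 0.0341), and in Dgcr8 KO it stood at 0.79 ± 0.23 (adjusted p = 0.0648). Cenpa, the centromeric H3 variant, fell by 0.94 in Drosha KO and by 1.19 in Ago1_2 KO (SE 0.25 each, adjusted p = 0.0397 and 0.0136), with 0.03 ± 0.24 in Dgcr8 KO. H2afy, which encodes macroH2A, fell by 0.60 in Drosha KO and by 0.63 in Ago1_2 KO (SE 0.17 each, adjusted p = 0.0477 and 0.0308). These comparisons share the WT libraries.

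Of 26 genes for the 3′ end processing and turnover of histone mRNA, 1 was called higher and 1 lower in Dgcr8 KO, 0 higher and 3 lower in Drosha KO, and 0 higher and 4 lower in Ago1_2 KO, against 6.93%, 11.4% and 17.6% of all genes called in either direction. In either direction these counts are near those shares. All genes of the list called in Drosha KO and Ago1_2 KO were lower, beside 4.83% and 7.38% of all genes called lower there. Sympk, the symplekin scaffold of the cleavage factor, fell by 0.87 in Dgcr8 KO (SE 0.17, log2, edgeR adjusted p = 0.0229), and Cstf2t, a cleavage stimulation factor, rose there by 0.78 (SE 0.20, adjusted p = 0.0473). Cpsf3, the nuclease that cuts histone pre-mRNA, fell by 0.82 in Ago1_2 KO (SE 0.18, adjusted p = 0.0157), and Fip1l1, a polyadenylation factor, fell by 0.94 in Drosha KO (SE 0.20, adjusted p = 0.0175). Median log2 fold changes of the list were -0.11 in Dgcr8 KO, -0.31 in Drosha KO and -0.17 in Ago1_2 KO.

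Of 20 histone chaperones and supply factors, 0 were called in Dgcr8 KO, 2 lower in Drosha KO and 3 lower in Ago1_2 KO, with no gene higher. Beside them, 4.83% and 7.38% of all genes were called lower in Drosha KO and Ago1_2 KO (11.4% and 17.6% in either direction). Rbbp7, a histone-binding subunit of several chromatin complexes, fell by 0.96 in Ago1_2 KO (SE 0.18, log2, edgeR adjusted p = 0.0097). Nasp, a chaperone of the linker and core histones, fell by 0.71 in Drosha KO (SE 0.19, adjusted p = 0.0429), and Hat1, which acetylates new H4, fell by 0.68 there (SE 0.19, adjusted p = 0.0492). Of all genes tested, 4.48%, 4.83% and 7.38% were called lower in Dgcr8 KO, Drosha KO and Ago1_2 KO (6.93%, 11.4% and 17.6% in either direction). Of 30 cell cycle and S phase genes, 1 was lower in Dgcr8 KO, 4 were lower in Drosha KO and 5 in Ago1_2 KO, with no gene higher. Among them the mitotic cyclin gene Ccnb2 fell by 1.11 in Drosha KO and by 1.26 in Ago1_2 KO (SE 0.18 each, adjusted p = 0.00691 and 0.00289), and Gins2, part of the replicative helicase, fell by 0.96 in Dgcr8 KO, by 0.88 in Drosha KO and by 0.89 in Ago1_2 KO (SE 0.24 each, adjusted p = 0.0421, 0.0423 and 0.0309). Summed S phase list levels were 5810 and 5850 CPM in Dgcr8 KO, 5380 and 4840 CPM in Drosha KO, 5110 and 4960 CPM in Ago1_2 KO, and 6100 and 6010 CPM in WT.

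Of 20 genes of the nuclear RNA exosome and its adaptors found in the table, 0 were called in Dgcr8 KO, 3 lower in Drosha KO and 4 lower in Ago1_2 KO, beside 4.83% and 7.38% of all genes lower there, among them the core subunit Exosc7 in Drosha KO (-0.93 ± 0.24, log2, edgeR adjusted p = 0.0379) and in Ago1_2 KO (-1.18 ± 0.24, adjusted p = 0.013). RNAs listed as carrying no poly(A) tail were also summed. Over 28 of them the summed level was 25.2 and 23.1 CPM in Dgcr8 KO, 14.6 and 11.2 CPM in Drosha KO, 13.3 and 13.3 CPM in Ago1_2 KO, and 15.8 and 26.8 CPM in WT. Only 4 were high enough to test, and 0 of these were called in any KO against WT by edgeR. Most of the summed level came from Snora73a and Snora73b (7.23 and 13.8 CPM in Dgcr8 KO replicate 1, 5.9 and 16.1 CPM in WT replicate 2). Not all followed it: Rn7sk stood at 0.264 and 1.14 CPM in Dgcr8 KO and at 1.03 and 1.27 CPM in Ago1_2 KO. In the sum over the 28 RNAs, both libraries of Dgcr8 KO, the group with the lowest mean histone sum, lay between the WT libraries. The part of these RNAs in the histone values was not tested. Without 1 library of the KO compared, where the fit rests on its other library alone, at most 1 gene of each list was called lower.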

How the data were processed

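The authors deposited counts per gene for 8 libraries of polyadenylated RNA, 2 per genotype, in 1 table. Per the labels, an Illumina TruSeq RNA kit was used on total RNA and the protocol is reverse-stranded. Alignment was by STAR 2.4.2a to mm10 (GRCm38), per the submitters' processing notes. For the counting tool, its use of strand and its annotation release, the sources used here state nothing. Gene identifiers were matched without version to GENCODE M21 and to RefSeq symbols; 47224 of 47643 matched a symbol.

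Members were found by symbol and by the limit of 20 summed counts. The members, the gene lists and the alternatives were chosen with earlier results of these data known. Genes were filtered with filterByExpr by genotype, scaled with TMM factors and fitted in edgeR 4.0.16 (under R 4.3.3, with limma 3.58.1) with 1 mean per genotype over all 8 libraries. Quasi-likelihood F test p-values were adjusted (Benjamini-Hochberg) over 16388 genes, and a gene was called under 0.05. Values by library are given for the 3 highest members of each class, and up to 4 genes of each list were eligible to be named by their smallest p against WT. Exact binomial intervals (95%) and the 20-count limit cover counting error only. The main edgeR fit was first tested on simulated counts, for Drosha KO against WT only, and the other steps were not. Alternatives were DESeq2 1.42.0 and its size factors, library size only, limma-voom, no filter, a filter of 1 CPM in 2 libraries, a fit of only the 2 groups compared, a replicate block, offsets for transcript GC content and length, each library left out, and classes without their highest member.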

Additional observations from a re-analysis of the deposited data

How the results depend on the processing

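Counts of called histone genes were small and moved with the settings. The cause was not tested except where noted. Calls over all genes moved with the settings too. In Dgcr8 KO against WT, 1136 of 16388 genes were called in either direction in the main test. With no filter on low counts 3241 of 27381 were called, and with the replicate block 2795 of 16388. In Dgcr8 KO against WT the count of lower genes, 0 in the main test, was 2 with no filter on low counts, which also tests genes of 1 count, and 1 with the replicate block, and leaving out 1 library gave 0 to 2. In Ago1_2 KO against WT it was 0 to 1 with 1 library left out. In Drosha KO against Dgcr8 KO the count of lower genes was 0 with DESeq2 and with a filter of 1 CPM, which leaves 3 members, and 0 to 1 with a library left out; the count of higher genes was 3 with no filter and 0 to 1 with a library left out. In Ago1_2 KO against Dgcr8 KO the count of higher genes was 0 with DESeq2 and with the filter of 1 CPM, and that of lower genes was 1 with library size only, only the groups compared, the replicate block, the GC offset and the length offset; leaving out a library gave 0 to 1 for each. For any genotype difference the count was 0 with DESeq2, limma-voom and the filter of 1 CPM, 5 with no filter, 2 with the replicate block, and 0 to 3 with a library left out. The log2 ratio of the members' sum to WT with a library left out ran from -1.19 to -0.37 in Dgcr8 KO, -0.80 to 0.29 in Drosha KO and -0.69 to 0.12 in Ago1_2 KO. Without its highest member the H1 ratio was 1.02 in Dgcr8 KO, -1.11 in Drosha KO and -0.92 in Ago1_2 KO, the H2B ratio -0.60 in Dgcr8 KO and -0.17 in Ago1_2 KO, and the H3 ratio -1.20 in Drosha KO and -0.80 in Ago1_2 KO. A minimum of 1, 100 or 200 counts gave 57, 3 or 2 members. Log2 fold changes against WT that changed sign, none of them called, were Hist1h4i with the length offset (0.24 in Dgcr8 KO and 0.32 in Ago1_2 KO) and Hist2h2be in Drosha KO with library size only (0.00) and the length offset (0.04). With 1 library left out, values that took both signs ran from -0.22 to 0.81 for Hist1h1c in Dgcr8 KO, -1.70 to 0.21 for Hist1h2bc in Drosha KO, -0.71 to 0.80 for Hist1h4i in Dgcr8 KO and -0.72 to 0.79 in Ago1_2 KO, -1.03 to 0.14 for Hist2h2be in Dgcr8 KO, -3.15 to 0.78 in Drosha KO and -0.92 to 0.24 in Ago1_2 KO, and -0.48 to 0.61 for Hist3h2a in Drosha KO. Replicate numbers shared by the labels were not taken to pair the libraries: differences between replicates 1 and 2 correlated between genotypes by 0.0963 to 0.245. With 1 library left out a group of 1 is assumed to vary like the others. Counts of lower genes in the lists also moved: for the 30 cell cycle genes they were 0 to 9 over the 3 KO groups, with 9 in Drosha KO and in Ago1_2 KO without WT replicate 1. Depth limits the histone values, since most members had under 20 counts in most libraries.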
